A study of Mus musculus with 2 samples.

Results

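The Mir34 and Mir449 genes are 6 microRNA genes (Mir34a, Mir34b, Mir34c, Mir449a, Mir449b and Mir449c) grouped by a shared seed, the stretch of bases 2 to 8 at the 5′ end of a mature microRNA that pairs with target mRNAs. They were taken by name from the 2202 microRNA genes counted. Their reads were examined in hippocampus, the brain region of memory formation, from wild-type female mouse of the C57BL/6 substrain that the labels call B6NCrl. The tissue is described as a layer of hippocampus with no layer named, and female comes from the free-text description, the sex field holding no value. The source is given as MODEL-AD, and both samples are described as controls, with no transgene or treatment named and no age given. There is 1 group of 2 libraries, labelled biological replicates 1 and 2, which have separate biosample records and 1 donor record. Whether the tissue came from separate animals is not given in the labels, so the spread between libraries may be technical. Replicate 1 held 6713867 reads on the sense strand of microRNA genes and replicate 2 held 5901107. Levels are given as CPM (sense counts of a gene scaled to a common library total), in which 1 read is worth 0.149 CPM in replicate 1 and 0.169 CPM in replicate 2. Reads were size-selected below 30 nt and cover a mature microRNA rather than a transcript, so levels were not divided by gene length.

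As background, Mir34a and the Mir34b and Mir34c cluster are direct transcriptional targets of the tumour suppressor p53, and their products repress mRNAs of cell cycle and survival genes. The Mir449 cluster lies inside Cdc20b, a gene switched on in multiciliated cells, and with Mir34b and Mir34c it is needed to form motile cilia. In brain, multiciliated ependymal cells line the ventricles beside the hippocampus, while Mir34a is known from neurons and Mir34c has been linked to memory in mice.

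RefSeq sequences on GRCm38.p6 show what ties the family together. The arm with the family seed is printed 5′ to 3′ for the 4 genes matched to such an entry, with bases 2 to 8 in capitals.
mmu-miR-34a-5p: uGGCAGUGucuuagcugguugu
mmu-miR-34b-5p: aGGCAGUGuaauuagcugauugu
mmu-miR-449a-5p: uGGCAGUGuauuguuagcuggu
mmu-miR-449c-5p: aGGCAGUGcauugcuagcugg
The Mir34c hairpin, printed because Mir34c carries the largest difference between the libraries within the family, holds the same letters once, in capitals, starting at base 14.
Mir34c hairpin: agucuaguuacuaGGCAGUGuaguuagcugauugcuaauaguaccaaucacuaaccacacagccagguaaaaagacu
The opposite arms of the p53-linked genes are shown because their seeds divide the family differently.
mmu-miR-34a-3p: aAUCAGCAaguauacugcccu
mmu-miR-34b-3p: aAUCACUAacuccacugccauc
mmu-miR-34c-3p: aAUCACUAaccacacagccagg
Mir449b belongs to the family by name.

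The seed GGCAGUG was found at bases 2 to 8 of 4 of the 1738 mature sequences in the RefSeq table, all of them members. The same letters, searched on the hairpin strand, occurred anywhere in 17 of 1005 hairpins (1.69%), members included. Beyond the seed the 4 mature sequences diverged. miR-34a-5p and miR-34b-5p were identical at 19 of 23 aligned positions, and miR-449a-5p and miR-449c-5p at 18 of 22, whereas miR-34a-5p and miR-449c-5p were identical at 15 of 22. On the other arm, miR-34b-3p and miR-34c-3p shared the seed AUCACUA and were identical at 17 of 22 positions, and miR-34a-3p had the seed AUCAGCA. No other gene in the table had the AUCACUA or AUCAGCA seed. Counts are per gene, so reads of the 2 arms of a hairpin cannot be told apart here.

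The family lies at 3 places in the genome (GENCODE M21, mm10). Mir34a is on the plus strand at chr4:150068454-150068555, within an exon of Gm37795, an unverified transcript model of the same strand. Mir34b (chr9:51103562-51103645) and Mir34c (chr9:51103034-51103110) are on the minus strand with starts 528 bases apart, opposite an intron of Btg4. Mir449c (chr13:113035983-113036091), Mir449b (chr13:113037419-113037498) and Mir449a (chr13:113037534-113037624) lie on the plus strand in an intron of Cdc20b, and the starts of Mir449b and Mir449a are 115 bases apart. No microRNA gene outside the family starts within 10 kb of a member. The longest stretch that any of the 6 hairpins shares with another counted hairpin, in either orientation, was 11 to 14 bases. By contrast 1133 of the 2202 hairpins (51.5%) share 20 or more. Reads of these genes are therefore not held in common with another annotated hairpin at full length, although a copy outside annotated microRNA genes was not searched for.

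Mir34a supplied most of the family's reads in both libraries. It had 24079 counts in replicate 1 and 7708 in replicate 2, which is 3586 CPM (exact Clopper-Pearson 95% interval 3541 to 3632) and 1306 CPM (1277 to 1336), with a mean of 2446 ± 1612 CPM (SD, n = 2). Its level was the higher one in replicate 1, where it ranked 44 of 2202 genes, against 71 in replicate 2. Intervals and limits here cover counting error only, since the reads carry no molecular identifiers.

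Mir34c was the next member. It had 3028 counts (451 CPM, 435 to 467) in replicate 1 and 361 counts (61.2 CPM, 55.0 to 67.8) in replicate 2, with a mean of 256 ± 276 CPM (SD, n = 2). The SD exceeded the mean, and the rank moved from 128 to 207.

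Mir34b, the cluster partner of Mir34c, was far lower. It had 233 counts (34.7 CPM, 30.4 to 39.5) in replicate 1 and 92 counts (15.6 CPM, 12.6 to 19.1) in replicate 2, with a mean of 25.1 ± 13.5 CPM (SD, n = 2). Mir449a, of the ciliated-cell cluster, had 219 counts (32.6 CPM, 28.4 to 37.2) in replicate 1 and 82 counts (13.9 CPM, 11.1 to 17.2) in replicate 2, with a mean of 23.3 ± 13.2 CPM (SD, n = 2). Both genes were higher in replicate 1.

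Mir449b and Mir449c had 0 counts in both libraries, which allows up to 0.447 CPM in replicate 1 and 0.508 CPM in replicate 2 (3 counts per library). Mir449a counts were 73.0 times that limit for either of its neighbours in replicate 1 and 27.3 times in replicate 2. These folds make no allowance for counting error in Mir449a. Over all genes, 787 of 2202 had a sense count in either library, as did 4 of the 6 members.

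The order of the levels was Mir34a, Mir34c, Mir34b and Mir449a in both libraries. The lowest Mir34a level (1306 CPM) was above the highest Mir34c level (451 CPM), and the lowest Mir34c level (61.2 CPM) was above the highest Mir34b level (34.7 CPM). Mir34b and Mir449a did not differ beyond counting error in either library (exact binomial test of their counts, 2-sided, unadjusted p = 0.541 in replicate 1 and 0.495 in replicate 2). Mir34b counts were 1.06 times those of Mir449a in replicate 1 and 1.12 times in replicate 2.

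**Figure D1:**
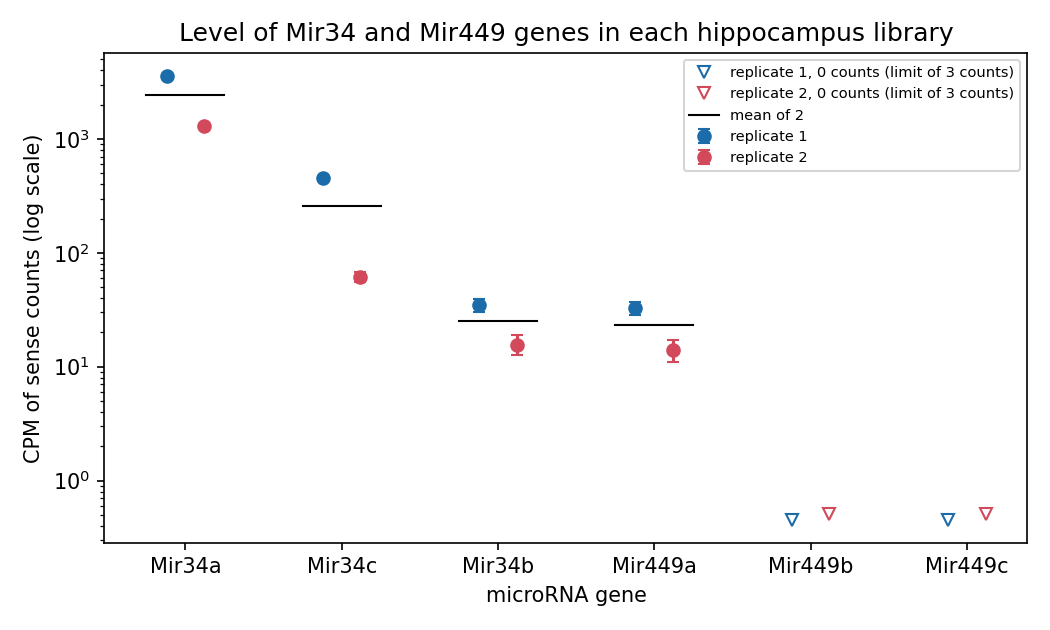
CPM of sense counts (log axis) of the 6 genes in replicate 1 (blue) and replicate 2 (red), with exact 95% counting intervals, a bar at the mean of the 2 libraries, and open triangles at the limit of 3 counts for genes with 0 counts. Each of the 4 detected genes is higher in replicate 1, and Mir34c has the widest gap, 451 against 61.2 CPM.

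Summed over the 6 genes the family had 4105 CPM in replicate 1 and 1397 CPM in replicate 2, a mean of 2751 ± 1915 CPM (SD, n = 2). Mir34a held 87.4% of the family's counts in replicate 1 (exact 95% interval 87.0 to 87.8) and 93.5% in replicate 2 (93.0 to 94.0). The share of Mir34c was 11.0% (10.6 to 11.4) in replicate 1 and 4.38% (3.95 to 4.84) in replicate 2. Mir34b and Mir449a each held 0.795% to 1.12%. The make-up of the family thus differed between the libraries mainly in the shares of Mir34c and Mir34a. Shares add up to a fixed total, so a smaller share of Mir34c must go with larger shares of other members. In level both genes were lower in replicate 2.

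All 4 detected genes were lower in replicate 2 by the comparison of the 2 libraries. Ratios are log2 of replicate 2 over replicate 1 with 0.5 counts added, with library sizes adjusted by TMM, the trimmed-mean scaling of edgeR, and the SE covers counting error. A gene was called lower or higher where a 2-sided Fisher exact test of its share of the counts passed 0.05 after Benjamini-Hochberg adjustment over 466 genes whose mean count was at least 10, and its ratio had the same sign under TMM, library totals and DESeq2 size factors. The test compares these libraries, not conditions, and covers counting error only. By this rule 4 of 4 tested members were called lower, against 35.6% of all tested genes, and 0 were called higher, against 18.0%. With a difference of 2-fold or more also required, 3 members were called lower (Mir34a, Mir34c and Mir449a), against 6.87% of all tested genes. All 4 had more than 10 counts in each library, so none was tested only through the library where it was higher.

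The ratio of Mir34c was -2.72 (SE 0.08), the sixth lowest of the 466, and 1.29% of tested genes lay at least as far from 0. Mir34a had a ratio of -1.30 (SE 0.02), and 7.94% of tested genes lay as far out. For both genes the exact p-value lay at or under the smallest number the software represents. Mir449a had a ratio of -1.06 (SE 0.19, Fisher exact test, adjusted p = 1.58e-11) and Mir34b one of -0.99 (SE 0.18, adjusted p = 3.33e-11). The p-values compare shares of raw library totals, whereas the ratios printed beside them use TMM sizes. For Mir449a and Mir34b, 11.8% and 13.9% of tested genes lay at least as far from 0. Among the members Mir34c alone was near the edge of the distribution, and differences as large as those of Mir34b and Mir449a were common between these libraries.

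Across the 466 tested genes the ratios had a median of -0.02 with TMM, -0.03 with DESeq2 size factors and -0.18 with totals. Relative to that median the members lay at -2.70 (Mir34c), -1.28 (Mir34a), -1.05 (Mir449a) and -0.97 (Mir34b). These distances are the same under each scaling by construction, since a scaling shifts all ratios alike. Their own median ratio was -1.18 under TMM, and 25% of all tested genes had ratios under -0.39.

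**Figure D2:**
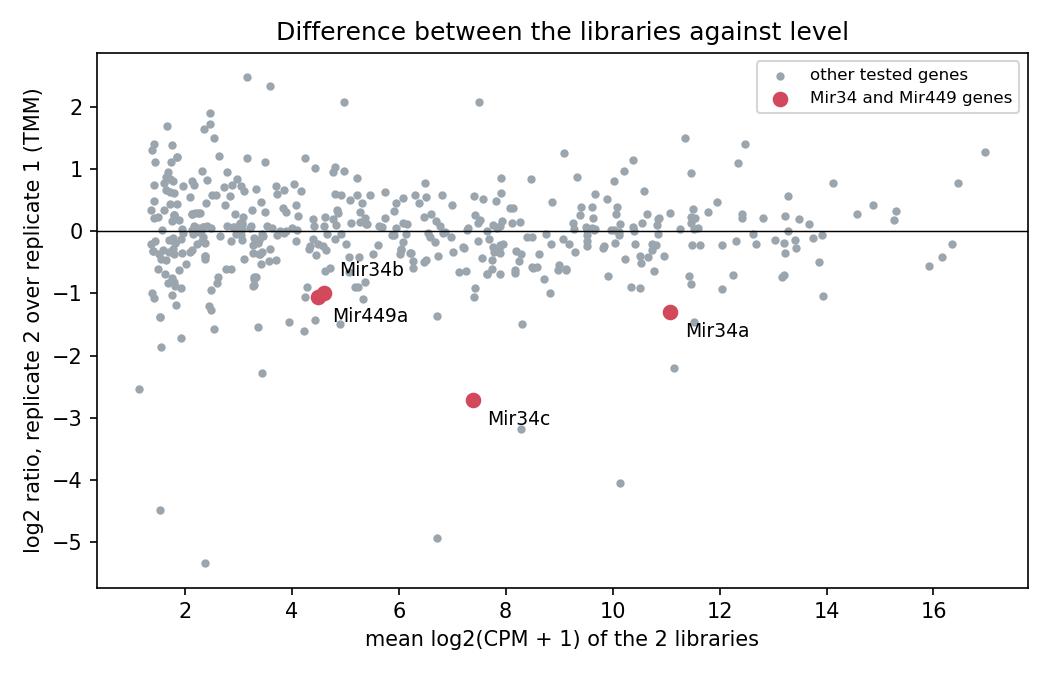
Log2 ratio of replicate 2 over replicate 1 (TMM) against mean log2(CPM + 1) for 466 tested microRNA genes (grey), with the 4 detected family members in red. The members lie below 0, between -0.99 and -2.72, at mean log2(CPM + 1) from 4.48 (Mir449a) and 4.61 (Mir34b) to 11.1 (Mir34a).

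Mir34c differed from the other members in the size of its ratio. The Mir34b and Mir34c hairpins are close neighbours thought to be cut from a single primary transcript. A count ratio of 2 genes within a library does not depend on scaling. There were 13.0 Mir34c counts for each Mir34b count in replicate 1 and 3.92 in replicate 2. This is a 3.31-fold change of balance (Fisher exact test of the 2 genes by 2 libraries, p = 1.84e-16, counting error only). For comparison, 108 pairs of adjacent tested genes on the same strand had starts within 10 kb, and their ratios differed by a median of 0.43 on the log2 scale. The Mir34b and Mir34c ratios differed by 1.73, and 4 of the 108 pairs (3.70%), that pair included, differed by at least as much. The other three, named after their values were seen, were Mir296 with Mir298, Mir1188 with Mir370, and Mir141 with Mir200c. Of the 80 pairs in which both genes averaged 100 or more counts, 3 differed that much. A gap of this size within a cluster was thus uncommon here, but not confined to this pair.

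Comparisons of all 6 pairs of detected members, a family of tests chosen after the data were seen, separated Mir34c from each of the rest. The Mir34a to Mir34c count ratio was 7.95 in replicate 1 and 21.4 in replicate 2, and the Mir34c to Mir449a ratio was 13.8 and 4.40. With the Mir34b pair, these were the 3 pairs that passed the exact test after adjustment over 6. The Mir34a to Mir34b count ratio was 1.23 times as high in replicate 1 as in replicate 2 (95% counting interval 0.968 to 1.57, Fisher exact test, adjusted p = 0.137), and 1.31 times with unstranded counts, which passed (adjusted p = 0.0405). For Mir34a with Mir449a the factor was 1.17 (0.906 to 1.51, adjusted p = 0.270), and for Mir34b with Mir449a 0.948 (0.668 to 1.35, adjusted p = 0.789). These intervals bound the differences and do not show that the genes moved equally. Mir34b and Mir449a, genes of different chromosomes, thus had similar counts and similar ratios in these libraries.

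**Figure D3:**
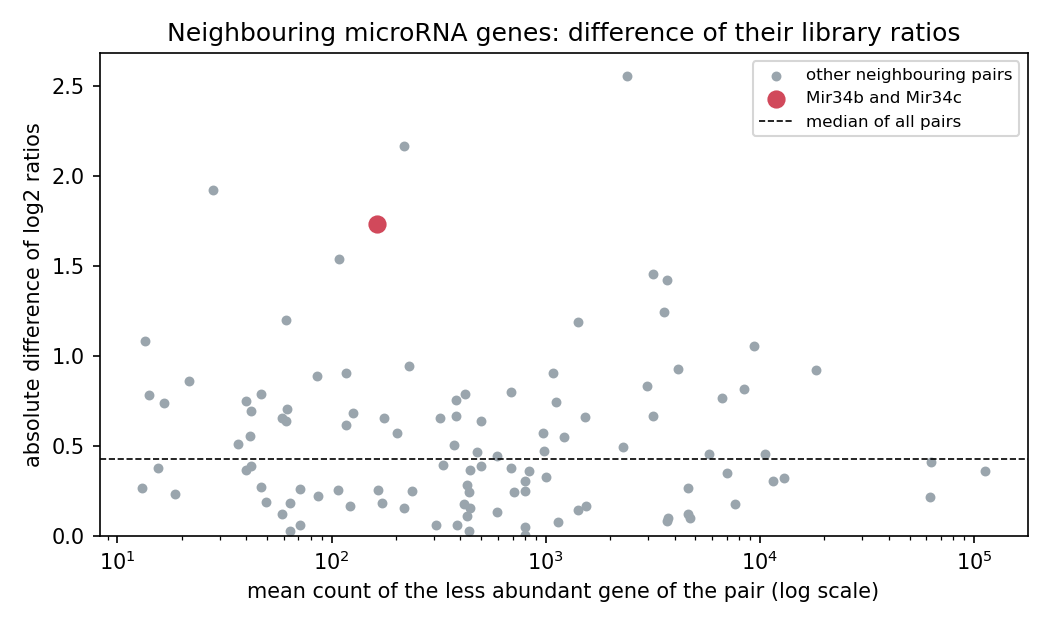
Absolute difference of the log2 ratios of 2 adjacent microRNA genes against the mean count of the less abundant one (log axis), for 108 pairs within 10 kb on the same strand. Mir34b with Mir34c (red) stands at 1.73, and the dashed line marks the median of all pairs, 0.43.

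Set beside other seed families, the Mir34 and Mir449 genes had the second lowest median ratio. Families were built from the RefSeq mature sequences, with Mir34c placed by name, and 420 of the 466 tested genes matched an entry. Of 22 families with 3 or more tested genes, median ratios ran from -1.87 to 1.73, and a gene can be in more than 1 family through its 2 arms. The family of Mir103-1, Mir103-2 and Mir107 was lower, at -1.87, and the family of Mir7-1, Mir7-2 and Mir7b followed at -0.90. These 3 families were the ones in which every tested gene was called lower, and 1 family had every gene called higher. Of the 11 families with 4 or more tested genes, the Mir34 and Mir449 family was the 1 with all of its genes called lower. It reached 4 only with Mir34c, placed by name. The family of Mir30a was not filled in this way and lacks Mir30b and Mir30d, so this standing rests partly on that placement. No test was made between families, whose genes often share a cluster. Reads that mapped to several places are in no gene, so genes with long shared stretches may be counted only in part. The Mir34 and Mir449 hairpins share at most 14 bases with another counted hairpin, so families may not be counted alike.

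**Figure D4:**
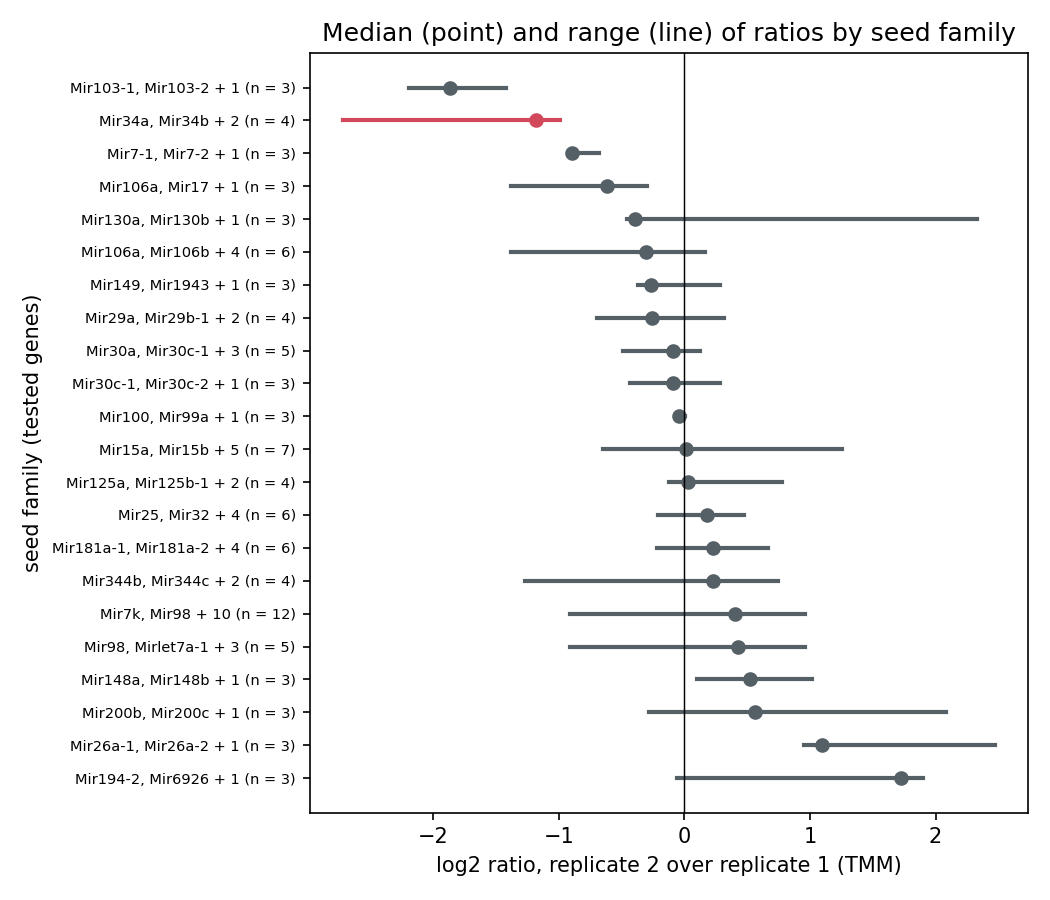
Median (point) and range (line) of the log2 ratio of replicate 2 over replicate 1 for 22 seed families with 3 or more tested genes, ordered by median. The Mir34 and Mir449 family (red) has a median of -1.18 and its whole range lies below 0.

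Other microRNAs linked to p53 did not share a single direction. Of 12 listed genes outside the family, 11 matched by symbol and 9 were tested. In replicate 2, 5 were called lower, 1 higher and 3 neither, with a median ratio of -0.28 against -0.02 for all tested genes. Of all tested genes 35.6% were called lower and 18.0% higher. Mir107, whose host gene is a p53 target, had 5146 CPM in replicate 1 and 1005 CPM in replicate 2, a ratio of -2.19 (SE 0.02), and was also 1 of the 3 genes nearest to Mir34a in mean level. Mir143, whose processing p53 promotes, stood at 2314 and 1327 CPM (-0.64, SE 0.02), and Mir15a at 280 and 164 CPM (-0.61, SE 0.06). Mir16-1, the cluster partner of Mir15a, had 178 and 175 CPM and did not pass (0.14, SE 0.06). Neither did Mir145a, whose start lies 1371 bases from that of Mir143, with 165 and 177 CPM (0.26, SE 0.06). The 1 gene called higher was Mir141, with 16 and 40 counts.

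The list of choroid plexus and epithelial genes held mostly genes higher in replicate 2. Of 8 listed genes 7 were tested, 6 were called higher in replicate 2 and 0 lower, with a median ratio of 0.59. The shares of all tested genes were 18.0% called higher and 35.6% called lower. The 6 genes called higher are not at 6 separate places in the genome. Mir429, Mir200a and Mir200b are adjacent, with starts 991 and 785 bases apart, and the starts of Mir182 and Mir183 are 3750 bases apart. Mir204, the leading choroid plexus microRNA, had 1532 CPM in replicate 1 and 1653 CPM in replicate 2 (0.27, SE 0.02). Mir200b of epithelia had 92.3 and 350 CPM (2.08, SE 0.07), Mir429 148 and 195 CPM (0.56, SE 0.06) and Mir183 71.5 and 109 CPM (0.78, SE 0.09). The remaining tested gene, the choroid plexus microRNA Mir211, had 35 and 20 counts and did not pass (-0.44, SE 0.40). The pair of choroid plexus markers summed to 1537 and 1656 CPM, nearly all of it Mir204, and the median of their 2 ratios was -0.09. The list does not stand for epithelial microRNAs in general. Mir200c, placed in the p53 list, was called lower (-0.28), as were Mir203 (-0.39), Mir205 (-0.86) and Mir375 (-0.58). The last 2 were named after their values were seen. Mir141, also placed in the p53 list, was called higher (1.64).

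The multiciliated ependymal marker list consists of Mir34b, Mir34c and the 3 Mir449 genes, so it gives no independent check of that cell type. It summed to 518 CPM in replicate 1 and 90.7 CPM in replicate 2, with Mir449b and Mir449c at 0. Neuronal markers, which check the labelled tissue, were present and summed to 34175 and 34132 CPM. Of 7 tested genes, 4 were called lower and 3 higher. The near-equal sums cover opposite shifts, such as Mir128-1 at 3723 and 8772 CPM and Mir138-1 at 3716 and 2024 CPM. Mir124a-2, a copy of an exactly repeated microRNA, was at 0. Its other copies Mir124a-1 (8 and 5 counts) and Mir124a-3 (7 and 1 counts) were near 0. Like the ependymal list, the listed oligodendrocyte, endothelial and erythrocyte markers were lower in replicate 2. Oligodendrocyte Mir219a-2 stood at 5126 and 1671 CPM (-1.46) and Mir338 at 1941 and 1512 CPM (-0.20), endothelial Mir126a stood at 6191 and 2897 CPM, and the erythrocyte genes Mir451a and Mir486 summed to 72.2 and 31.7 CPM. All 5 of these genes were called lower, against 35.6% of all tested genes, and Mir338 by far less than any family member. Not every marker of other cells was lower. Mir219a-1, outside the marker list and named after its value was seen, was not called (-0.04), and choroid plexus Mir204 was called higher. The part of these cell types in the family's difference was not tested. Adapter trimming followed a different document for each library, so its part and that of the biosample cannot be told apart. In tissue, fewer cells of a type and less of the RNA per cell cannot be told apart either.

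Genes most like each member were found by distance over the 2 libraries, which describes 2 values and no more. In mean level, Mir484, Mir107 and Mir379 were nearest to Mir34a, and Mir1298, Mir429 and Mir145a to Mir34c. Mir92-2, Mir8111 and Mir33 were nearest to Mir34b, and Mir32, Mir203 and Mir103-2 to Mir449a. In ratio, Mir34c was nearest to Mir10b (-2.54, from 18 and 2 counts), Gm23873 (-2.28) and Mir31 (-3.17), and Mir34a to Mir344g (-1.27), Mir335 (-1.36) and Mir106a (-1.38). Mir34b had Mir381, Mir615 and Mir450b within 0.031 of its ratio, and Mir449a had Mir764, Mir1298 and Mir1968 within 0.014. For Mir34c the nearest ratio was 0.18 away, since few genes reached ratios that low.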

How the data were processed

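MicroRNA reads of 2 hippocampus libraries were analysed. The authors deposited raw whole-number counts per microRNA gene for mm10 and GENCODE M21, per the notes filed beside each library. Which aligner and which counter made them is not given in the sources used here. Every library's file has columns of counts without strand, on the gene's strand and on the opposite strand. Reads that mapped to several places (43.9% and 45.9% of 15794475 and 14300757 reads) are in a class of their own and in no gene. Library sizes exclude the read classes. All 2202 identifiers matched GENCODE names.

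CPM, ratios and exact tests (SciPy 1.17.1) were computed from the sense counts, with TMM factors (edgeR 4.0.16) and DESeq2 1.42.0 size factors from genes with a count. The exact test compares shares of raw totals. An exact binomial test at TMM sizes was added after seeing the data. With a single group, no model between conditions was possible. The exact test of shares and the ratio were tried on simulated Poisson counts with known library sizes. The TMM and DESeq2 scalings, the pair comparisons and the family steps were not. Named were all members, the 3 genes nearest to each in level and in ratio, leading list genes, and any gene sharing the seed. Members and lists were chosen with earlier results of these data known.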

Additional observations from a re-analysis of the deposited data

Results flagged for a closer look

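Mir34b had reads on the strand opposite to the gene, in a column of counts that the levels above do not use. There were 10 antisense counts in replicate 1 and 10 in replicate 2, above the limit of 3 counts that a count of 0 allows. They made up 4.12% (exact 95% interval 1.99 to 7.44) and 9.80% (4.80 to 17.3) of the reads on either strand of Mir34b. Pooled over the 2138 genes that face no other microRNA gene, antisense reads were 0.00303% and 0.00293% of the counts, a share dominated by abundant genes. Mir34b held 5.26% and 6.17% of all such antisense reads. It was 1 of 3 genes with 10 or more in both libraries, with Mir3083 and Mir5620 (named after their values were seen). Antisense shares of single genes varied widely. They were 57.8% and 48.4% for Mir5620 and 3.85% and 5.43% for Mir7240. For Mir3086 they were 3.23% and 5.36%, and for Mir708 0.143% and 0.437% (the last 3 genes also named after their values were seen). A share like that of Mir34b was thus not confined to it. Mir34c, the neighbour of Mir34b, had 0 and 1 antisense counts, and Mir34a and Mir449a had 0 in both libraries. The antisense strand of Mir34b is the strand of Btg4, in an intron of that gene.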

How the results depend on the processing

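The 4 members stayed lower in replicate 2, past the test, with unstranded counts, no filter, a minimum mean of 50 counts, and an exact binomial test at TMM sizes. Totals, DESeq2 size factors and 5 added counts change the ratio and not the exact test, and the ratios kept their sign under them. Ratios ran from -2.88 to -2.70 for Mir34c, -1.46 to -1.30 for Mir34a, -1.23 to -1.02 for Mir449a and -1.15 to -0.91 for Mir34b. Mir34b missed 2-fold under TMM (1.98-fold). With all reads of a library as the denominator, the mean CPM of Mir34b was 10.6 and that of Mir449a 9.80, because that denominator is larger. The share of all genes called lower was 21.1% to 47.3% across the filters, and 29.4% by the binomial test. With unstranded counts the Mir34a to Mir34b balance changed by 1.31-fold (adjusted p = 0.0405), past the threshold, because the antisense reads of Mir34b are then included. In the p53-linked list the number called higher was 0 at a mean of 50 or more counts and 2 by the binomial test. The number called lower was 4 in each of these settings, against 5 in the main one. Without one library a level is that of the other, as given above, and no ratio can be formed. No paired analysis was possible because there is a single group. Reads shared with copies outside annotated microRNA genes limit what these counts can show.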
